A study of Mus musculus with 2 samples.

Results

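Cycling nuclei of the mouse hippocampus were taken by their RNA: a nucleus counted as cycling when it held 2 or more unique molecular identifiers (UMIs, counts of captured RNA molecules) of Top2a and Mki67 together and 4 or more of Top2a, Mki67, Cenpf, Cenpe and Kif11 together. By this rule 143 of 39861 nuclei were cycling, 77 of 19596 in the AAV-TAU library and 66 of 20265 in the AAV-STOP library. The study injected adeno-associated virus (AAV) into the fluid spaces of both sides of the brain of newborn C57BL/6J mice (postnatal day 0) and took the hippocampi at 6 weeks. AAV-TAU mice received a vector for full-length wild-type human tau (2N4R), and AAV-STOP mice the same kind of vector with an early stop codon in the human MAPT transcript, so both groups carried virus and human MAPT. Each group was 1 library of nuclei pooled from 3 mice, with about 20000 nuclei loaded, so there was no replicate and no test between the groups. All intervals are exact 95% intervals that cover counting error only. The labels used here give neither the promoter of the vectors nor a cell type that it drives, and the gene table held no human MAPT, so no nucleus could be called transduced.

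Dividing cells switch on their replication genes in S phase and then, in G2 and mitosis, a set of genes for chromosome condensation, kinetochores and the spindle. In the adult rodent hippocampus the known dividing cells are oligodendrocyte precursor cells (OPCs), which carry Pdgfra and renew the oligodendrocyte lineage, the neural stem and progenitor cells of the dentate gyrus, which pass from radial glia through Eomes-positive progenitors to Dcx-positive neuroblasts, and microglia. Sox2 is shared by stem cells and glia, and Egfr is a growth factor receptor known from activated neural progenitors. The 5 genes of the rule act late in the cycle. Top2a (chr11:98992943-99024189, GRCm38, minus strand) encodes the topoisomerase that untangles replicated DNA, and Mki67 (chr7:135689784-135716361, minus strand) the Ki-67 protein that coats mitotic chromosomes. Cenpf (chr1:189640606-189688086, minus strand) and Cenpe (chr3:135212537-135273611, plus strand) encode kinetochore proteins, and Kif11 (chr19:37376403-37421859, plus strand) the motor that separates the spindle poles.

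The promoters of these 5 genes are shown because the rule chose the nuclei by them. Those of Knl1 and Prc1 are shown because these 2 genes had the largest ratios of cycling over not cycling OPC-like nuclei outside the rule. The ranking used the smaller ratio of the libraries. Each line is 5′ to 3′ along the gene's strand, from 250 bases before to 50 bases after the RefSeq start (GRCm38.p6). Capitals mark the cell cycle genes homology region (CHR, TTTGAA or TTCGAA) and the CCAAT box, each on either strand, so that TTCAAA and ATTGG are the same motifs read on the other strand; TTCGAA reads the same on both.
Top2a, chr11:99024140-99024439, minus strand: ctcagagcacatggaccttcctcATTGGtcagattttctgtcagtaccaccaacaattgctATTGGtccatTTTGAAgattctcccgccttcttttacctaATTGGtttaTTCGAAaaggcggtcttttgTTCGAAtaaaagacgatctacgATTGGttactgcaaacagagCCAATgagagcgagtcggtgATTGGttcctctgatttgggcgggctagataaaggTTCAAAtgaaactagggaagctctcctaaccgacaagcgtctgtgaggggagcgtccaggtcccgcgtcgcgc
Mki67, chr7:135716330-135716629, minus strand: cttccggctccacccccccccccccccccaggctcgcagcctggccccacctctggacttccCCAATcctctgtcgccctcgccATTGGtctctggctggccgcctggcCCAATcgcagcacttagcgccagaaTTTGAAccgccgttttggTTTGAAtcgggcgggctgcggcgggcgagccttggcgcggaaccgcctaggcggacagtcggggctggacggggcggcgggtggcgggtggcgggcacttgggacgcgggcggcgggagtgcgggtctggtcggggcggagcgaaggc
Cenpf, chr1:189688037-189688336, minus strand: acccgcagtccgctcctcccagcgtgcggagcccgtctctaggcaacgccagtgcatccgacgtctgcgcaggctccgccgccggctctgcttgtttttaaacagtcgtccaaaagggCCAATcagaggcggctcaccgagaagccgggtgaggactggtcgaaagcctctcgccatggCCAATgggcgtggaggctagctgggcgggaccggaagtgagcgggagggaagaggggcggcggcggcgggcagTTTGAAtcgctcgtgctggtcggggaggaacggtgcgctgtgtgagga
Cenpe, chr3:135212313-135212612, plus strand: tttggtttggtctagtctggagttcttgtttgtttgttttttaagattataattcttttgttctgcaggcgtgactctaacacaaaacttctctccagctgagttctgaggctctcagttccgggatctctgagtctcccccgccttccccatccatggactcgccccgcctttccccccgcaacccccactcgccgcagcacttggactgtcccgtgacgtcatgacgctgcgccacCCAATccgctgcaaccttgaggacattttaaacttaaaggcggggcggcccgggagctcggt
Kif11, chr19:37376132-37376431, plus strand: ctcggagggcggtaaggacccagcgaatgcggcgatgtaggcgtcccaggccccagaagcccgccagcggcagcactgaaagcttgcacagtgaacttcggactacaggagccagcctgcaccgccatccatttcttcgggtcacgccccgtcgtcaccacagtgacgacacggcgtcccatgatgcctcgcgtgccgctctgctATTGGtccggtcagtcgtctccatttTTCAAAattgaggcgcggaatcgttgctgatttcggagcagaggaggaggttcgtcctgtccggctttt
Knl1, chr2:119046869-119047168, plus strand: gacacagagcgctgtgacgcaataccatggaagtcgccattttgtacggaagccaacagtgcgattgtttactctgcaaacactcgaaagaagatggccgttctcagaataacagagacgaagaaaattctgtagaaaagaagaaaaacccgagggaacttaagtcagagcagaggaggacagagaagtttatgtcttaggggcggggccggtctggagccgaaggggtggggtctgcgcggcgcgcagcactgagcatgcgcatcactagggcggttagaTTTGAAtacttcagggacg
Prc1, chr7:80294201-80294500, plus strand: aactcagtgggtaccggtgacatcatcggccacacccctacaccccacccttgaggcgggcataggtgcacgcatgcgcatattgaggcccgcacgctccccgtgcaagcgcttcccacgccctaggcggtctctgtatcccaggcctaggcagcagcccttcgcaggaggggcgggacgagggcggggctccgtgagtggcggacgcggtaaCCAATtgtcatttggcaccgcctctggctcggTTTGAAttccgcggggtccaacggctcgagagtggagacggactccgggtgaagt
A CHR was found in 4 of the 5 promoters of the rule, with Cenpe the exception, and a CCAAT box in 5 of 5. Over all 32851 promoters of the table, 19.2% held a CHR and 37.4% a CCAAT box. Of the 87 promoters of the G2/M and mitosis lists, 65.5% held a CHR and 69.0% a CCAAT box, and 50.6% held both, against 7.53% of all promoters with both. The 51 promoters of the S phase and replication lists held a CHR in 17.6%, a CCAAT box in 60.8%, and an E2F motif in 27.5% (TTTGGCGC or TTTCGCGC, either strand). That motif stood in 5.75% of the G2/M promoters and in 0.813% of all promoters. A match of letters describes the sequence and does not show that a factor binds there.

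Top2a was the gene of the rule found in the most nuclei. It had a UMI in 76 of 77 AAV-TAU and 66 of 66 AAV-STOP cycling nuclei, with at most 11 and 15 UMIs in a nucleus. Mki67 had a UMI in 58 of 77 AAV-TAU and 53 of 66 AAV-STOP nuclei, and Kif11 in 57 of 77 and 60 of 66. Cenpf was found in 53 AAV-TAU and 44 AAV-STOP nuclei and Cenpe in 42 and 41. The median sum of the 5 genes was 10 UMIs in AAV-TAU and 12.5 UMIs in AAV-STOP nuclei, with maxima of 31 and 42. At the edge of the rule, 5 AAV-TAU and 6 AAV-STOP nuclei met a limit exactly, and 14 and 12 nuclei fell 1 UMI short. These values chose the nuclei and are a description.

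Over all cycling nuclei, depth was similar between the libraries at the median but not at the top. Cycling nuclei had a median of 4111 UMIs in AAV-TAU and 3959.5 in AAV-STOP, against 5119 and 5750 in all nuclei of those libraries. The AAV-TAU library held 12 cycling nuclei above 10000 UMIs (52.4% of its cycling UMIs, highest 55205), and AAV-STOP held 6 (25.5%, highest 15712). A doublet caller marked 16 of 77 AAV-TAU and 13 of 66 AAV-STOP cycling nuclei, against 10.5% and 12.6% of all nuclei of those libraries. No cycling nucleus had one of the 116 barcodes that the libraries shared. The median mitochondrial share was 0.278% in AAV-TAU and 0.179% in AAV-STOP cycling nuclei, near the 0.280% and 0.174% of all nuclei.

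**Figure D1:**
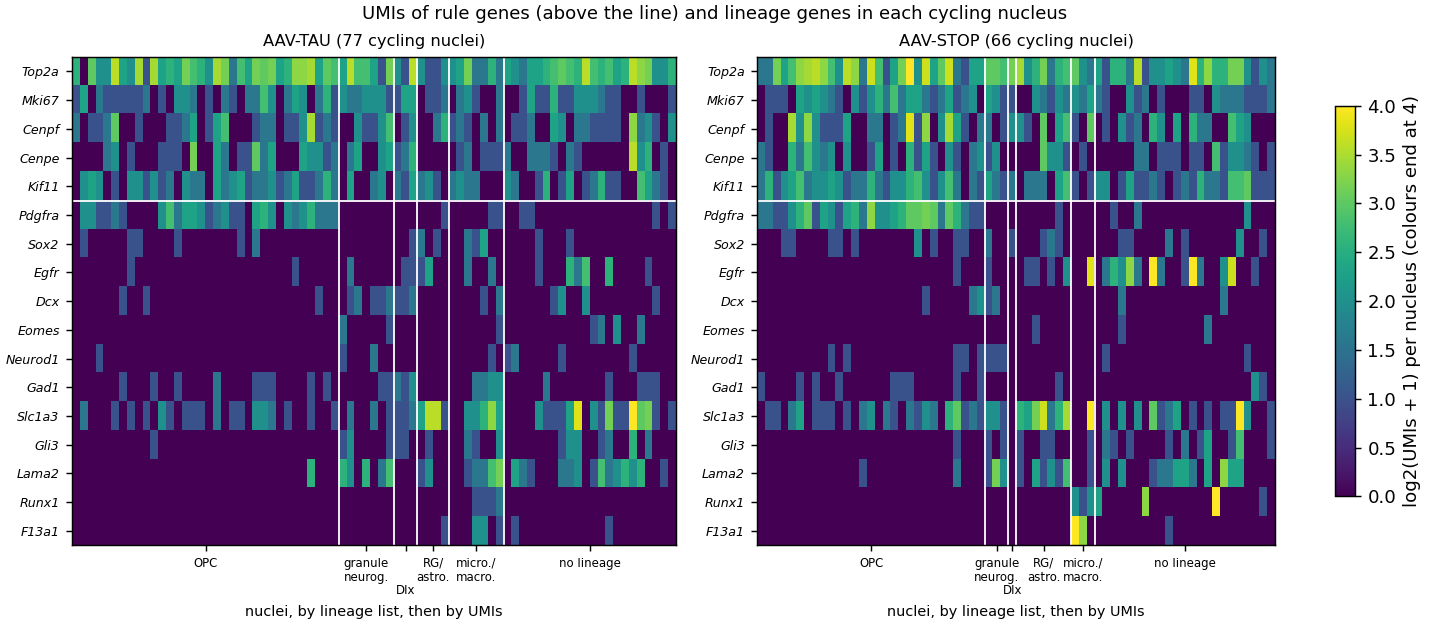
UMIs of the 5 rule genes (above the white line) and of 12 lineage genes in each cycling nucleus, as log2(UMIs + 1), AAV-TAU left and AAV-STOP right. Nuclei are columns, grouped by lineage list (RG/astro., radial glia or astrocyte) and ordered by UMIs within a group. Pdgfra lies mostly inside the OPC block, in 27 of 34 nuclei of AAV-TAU and 29 of 29 of AAV-STOP, and Egfr mostly outside it.

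The share of cycling nuclei was of the same order in both libraries. It was 0.393% (0.310 to 0.491) in AAV-TAU and 0.326% (0.252 to 0.414) in AAV-STOP, a ratio of 1.21 with an interval of 0.857 to 1.70. After every nucleus was thinned to 1500 UMIs, which lost no nucleus in either library, 36 AAV-TAU nuclei (0.184%) and 38 AAV-STOP nuclei (0.188%) met the rule, a ratio of 0.980 (0.603 to 1.59). The intervals hold 1 at both depths, and they do not show that the shares are equal. A stricter rule (3 and 6 UMIs) gave 65 AAV-TAU and 56 AAV-STOP nuclei, and a looser one (1 and 2 UMIs) 152 and 131.

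OPCs were the largest group among the nuclei that could be placed. Each nucleus was placed by 6 lists of 8 marker genes: it took the list with the most genes detected, with at least 3 genes and a lead of at least 1. OPC-like nuclei made up 34 of 77 cycling nuclei in AAV-TAU (44.2%, 32.8 to 55.9) and 29 of 66 in AAV-STOP (43.9%, 31.7 to 56.7). Their median depth was 4010 UMIs in AAV-TAU and 4734 in AAV-STOP, and that of the other cycling nuclei 4238 and 3060. The granule neurogenic list took 7 AAV-TAU and 3 AAV-STOP nuclei, the radial glia or astrocyte list 4 and 7, the microglia or macrophage list 7 and 3, and the Dlx neuroblast list 3 and 1. No nucleus was placed by the vascular or fibroblast list, which allows a share of up to 3.90% of cycling nuclei in AAV-TAU and 4.55% in AAV-STOP. No lineage could be given to 22 AAV-TAU nuclei (28.6%) and 23 AAV-STOP nuclei (34.8%). These classes are cut from marker counts: 17 of 55 placed nuclei in AAV-TAU and 11 of 43 in AAV-STOP had just 3 genes or a lead of 1, among them 6 of 34 and 1 of 29 OPC-like nuclei. The doublet caller marked 5 of the 34 and 6 of the 29 OPC-like nuclei. It also marked the AAV-TAU granule neurogenic nuclei of 6763, 7453 and 7850 UMIs, and no AAV-STOP nucleus of that list. Of the radial glia or astrocyte nuclei it marked those of 12004 and 13779 UMIs in AAV-STOP, and none in AAV-TAU. The AAV-TAU nucleus of 22455 UMIs in that class held 4 OPC genes beside 5 genes of its own list.

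**Figure D2:**
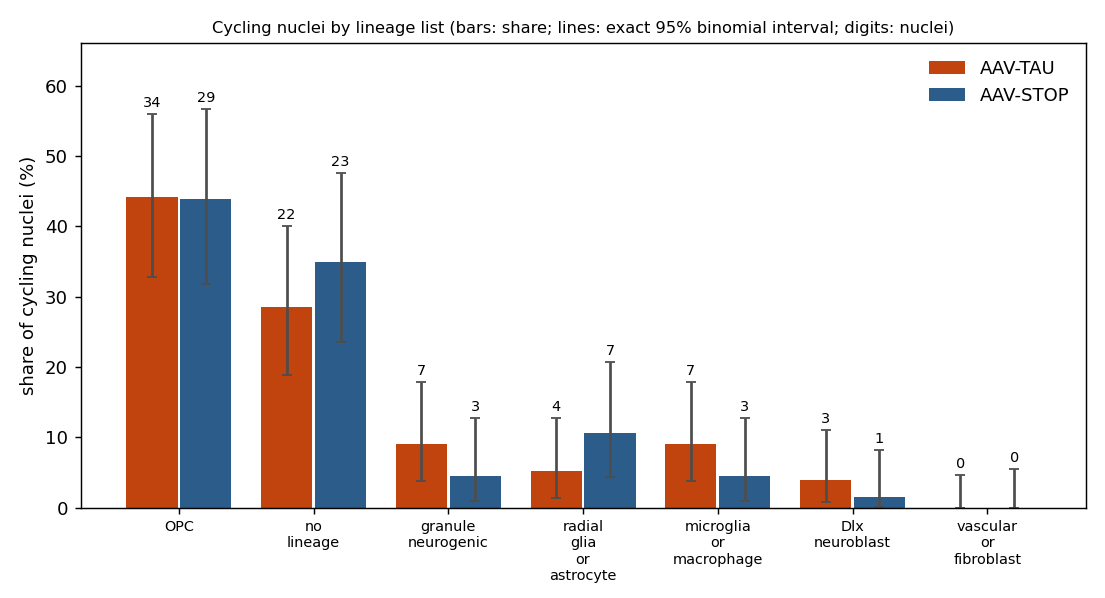
Share of cycling nuclei (%) placed by each lineage list, AAV-TAU left of AAV-STOP in each pair; lines are exact 95% binomial intervals and digits the number of nuclei. OPC-like nuclei were 44.2% in AAV-TAU and 43.9% in AAV-STOP, and every pair of intervals overlaps.

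OPC genes outside the placing list were also high in the OPC-like cycling nuclei. A list of 18 such genes had a median of 218 UMIs per 10000 in AAV-TAU and 242 in AAV-STOP OPC-like cycling nuclei, against 41.8 and 39.8 in cycling nuclei without a lineage and 32.2 and 34.2 in granule-type neurons. The placing list itself differed by construction. OPC-like cycling nuclei had a median of 5 of the 8 OPC genes in either library, and the summed list reached a median of 53.1 UMIs per 10000 in AAV-TAU and 60.4 in AAV-STOP nuclei. In cycling nuclei without a lineage the same medians were 2.04 and 2.48 per 10000. Of all OPC-like nuclei, 34 of 1011 were cycling in AAV-TAU (3.36%, 2.34 to 4.67) and 29 of 1108 in AAV-STOP (2.62%, 1.76 to 3.74), a ratio of 1.28 (0.760 to 2.19). Cycling shares of the other classes were lower or rested on few nuclei. They were 7 of 210 AAV-TAU and 3 of 273 AAV-STOP granule neurogenic nuclei (3.33% and 1.10%), 4 of 1651 and 7 of 1251 radial glia or astrocyte nuclei (0.242% and 0.560%), 7 of 1077 and 3 of 812 microglia or macrophage nuclei (0.650% and 0.369%), and 3 of 596 and 1 of 570 Dlx neuroblast nuclei (0.503% and 0.175%). The ratio of AAV-TAU to AAV-STOP had an interval holding 1 in each of these classes.

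Pdgfra, the platelet-derived growth factor receptor of OPCs (chr5:75152292-75198215, plus strand), marked the same nuclei. It had a UMI in 34 of 77 AAV-TAU and 33 of 66 AAV-STOP cycling nuclei, and 27 and 29 of these were OPC-like. In the OPC-like nuclei, which Pdgfra helped to choose, it was found in 27 of 34 in AAV-TAU (at most 6 UMIs) and in 29 of 29 in AAV-STOP (at most 9 UMIs). Outside them it was found in 7 of 43 and 4 of 37 nuclei, at 18.8 and 42.1 UMIs per 1000000 (CPM). As a background, granule-type neurons, which should lack Pdgfra, had a UMI in 3.75% of AAV-TAU and 5.40% of AAV-STOP nuclei at median depths of 6177.5 and 6551 UMIs. The doublet caller marked 319 of 1838 AAV-TAU and 572 of 2685 AAV-STOP granule-type neurons. The parts of free RNA and of doublets in this background were not tested. Thinned to 1500 UMIs, Pdgfra was found in 24.7% of AAV-TAU and 34.8% of AAV-STOP cycling nuclei, against 1.20% and 1.12% of those neurons.

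Egfr (chr11:16752203-16918158, plus strand) was found largely outside the OPC-like nuclei. It had 35 UMIs in 15 AAV-TAU nuclei and 99 UMIs in 20 AAV-STOP nuclei, of which 2 of 15 and 1 of 20 nuclei were OPC-like. In the other cycling nuclei it was found in 13 of 43 in AAV-TAU (30.2%, 17.2 to 46.1) and 19 of 37 in AAV-STOP (51.4%, 34.4 to 68.1). Granule-type neurons had Egfr in 6.37% of AAV-TAU and 7.71% of AAV-STOP nuclei, and oligodendrocyte-type nuclei in 1.53% and 2.65% at median depths of 2635 and 2762 UMIs. Thinned, the other cycling nuclei kept a UMI in 23.3% (AAV-TAU) and 35.1% (AAV-STOP), against 1.63% and 2.16% of granule-type neurons. High counts were few: 4 AAV-TAU nuclei held 4 to 6 UMIs, and 6 AAV-STOP nuclei held 5 to 18. Among all nuclei of a library with 4 or more Egfr UMIs, 4 of 174 were cycling in AAV-TAU (2.30%) and 6 of 274 in AAV-STOP (2.19%).

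Sox2 (chr3:34650405-34652461, plus strand), a stem cell and glial transcription factor, was sparse in both groups of nuclei. It had a UMI in 14 of 77 AAV-TAU (18.2%) and 20 of 66 AAV-STOP cycling nuclei (30.3%), and 6 and 9 of these were OPC-like. Oligodendrocyte-type nuclei, in which Sox2 is also known, had it in 19.8% and 21.2%, and granule-type neurons in 4.90% and 4.02%. Thinned shares in cycling nuclei were 5.19% in AAV-TAU and 12.1% in AAV-STOP. At 20 UMIs in AAV-TAU and 27 in AAV-STOP, Sox2 separated no lineage.

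Neurogenic genes were present in a minority. Dcx (chrX:143855842-143933311, minus strand), a microtubule protein of neuroblasts, had a UMI in 17 of 77 AAV-TAU cycling nuclei (22.1%) and 7 of 66 AAV-STOP nuclei (10.6%). Of these, 3 of 17 AAV-TAU and 3 of 7 AAV-STOP nuclei were OPC-like. Deeper granule-type neurons had Dcx in 18.0% and 17.9%. Thinned to 1500 UMIs, the shares were 7.79% (AAV-TAU) and 7.58% (AAV-STOP) in cycling nuclei and 3.97% and 4.28% in granule-type neurons, and no difference between the libraries was detectable at that depth. Eomes (chr9:118478212-118486132, plus strand), the transcription factor of intermediate progenitors, was found in 7 AAV-TAU nuclei (9.09%, 12 UMIs) and 3 AAV-STOP nuclei (4.55%, 4 UMIs). Its share in granule-type neurons was 0.163% and 0.410%, and it was found in 0 of 34 AAV-TAU and 0 of 29 AAV-STOP OPC-like cycling nuclei. Among OPC-like nuclei that were not cycling, 1 of 912 and 1 of 988 had an Eomes UMI. Cycling nuclei with no UMI of Pdgfra, Sox2, Egfr, Dcx or Eomes numbered 13 in AAV-TAU (16.9%) and 9 in AAV-STOP (13.6%).

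**Figure D3:**
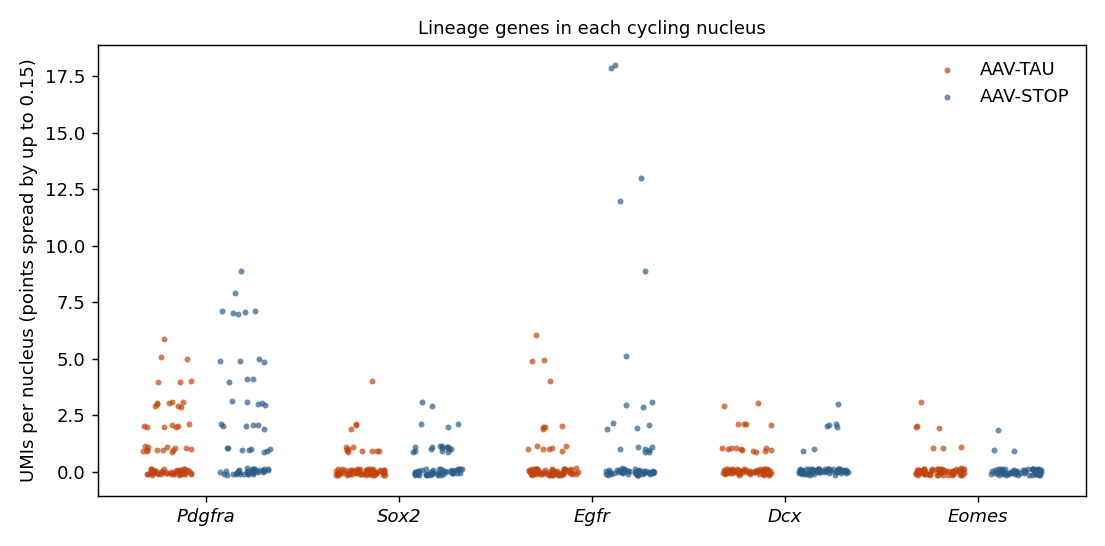
UMIs of Pdgfra, Sox2, Egfr, Dcx and Eomes in each cycling nucleus (1 point per nucleus), AAV-TAU left of AAV-STOP for each gene. Pdgfra reaches 6 UMIs in AAV-TAU and 9 in AAV-STOP, and Egfr 6 and 18; most points lie at 0.

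The nuclei without a lineage held more RNA of Egfr, Gli3, Cdk6 and Lama2 than OPC-like cycling nuclei did, in both libraries. Over OPC-like cycling nuclei, 56 of 1544 genes (3.63%) were 2-fold or more higher in them in both libraries; since the classes were set by marker genes and these comparisons were chosen with the data in view, this is a description. Egfr had 20 UMIs in 6 of 22 AAV-TAU and 78 UMIs in 13 of 23 AAV-STOP nuclei without a lineage. Gli3, a transcription factor of Hedgehog signalling, had 17 UMIs in 7 AAV-TAU and 20 UMIs in 10 AAV-STOP nuclei, against 1 UMI each in the OPC-like nuclei of AAV-TAU and AAV-STOP at 6.28 and 6.02 CPM. Cdk6, the kinase that starts the cycle with D cyclins, had 26 UMIs in either library, at 223 CPM in AAV-TAU and 255 CPM in AAV-STOP, against 18.8 and 24.1 CPM in OPC-like cycling nuclei. Lama2, a laminin chain, had 344 and 413 CPM against 31.4 and 18.1 CPM. The other genes of the 10 largest were Sox1ot, Rmst, Frmd4b, Adgrv1, Prag1 and Fgd4. Slc1a3, the glutamate transporter of astrocytes and radial glia, had 636 CPM in AAV-TAU and 501 CPM in AAV-STOP nuclei without a lineage, against 169 and 265 CPM in OPC-like ones. Neuronal RNA was also higher in the median nucleus of this group. The 8 mature neuron genes had a median of 32.1 UMIs per 10000 in AAV-TAU nuclei without a lineage and 16.8 in AAV-STOP ones, against 12.8 and 10.9 in OPC-like cycling nuclei. Summed over nuclei, the list was higher in AAV-TAU only. It had 5574 CPM in AAV-TAU and 2937 CPM in AAV-STOP nuclei without a lineage, against 2479 and 3227 CPM in OPC-like ones. The part of neuronal RNA in these values was not tested.

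The microglia or macrophage list took nuclei of 2 kinds in AAV-TAU. Of its 7 AAV-TAU nuclei, 2 had 1910 and 3381 UMIs with 6 and 5 microglial genes and at most 1 gene of any other list. The other 5 had 10359, 22083, 29220, 52458 and 55205 UMIs, and the 4 deepest held 3 to 5 OPC genes and 3 to 6 radial glia or astrocyte genes beside 5 to 8 microglial genes. The doublet caller marked 3 of these 5. In AAV-STOP the list took 3 nuclei of 3645, 4581 and 6374 UMIs, the first of which held 40 F13a1 UMIs and the second 9. The nucleus of 6374 UMIs held 4 radial glia or astrocyte genes and 3 Dlx neuroblast genes beside 6 microglial genes. It had 13 Egfr UMIs and 0 F13a1 UMIs, and the doublet caller did not mark it. F13a1 (chr13:36867178-37050244, minus strand), a coagulation factor known from border macrophages, had 10 UMIs in 6 AAV-TAU cycling nuclei, with at most 3 in a nucleus. Runx1 (chr16:92601466-92826149, minus strand), a transcription factor of the blood lineage, had 5 UMIs in 4 AAV-TAU nuclei and 36 UMIs in 7 AAV-STOP nuclei, with at most 2 and 15 in a nucleus. The 4 AAV-TAU nuclei were the 4 deepest of the list. The 3 highest Runx1 nuclei of AAV-STOP, at 15, 9 and 4 UMIs, had no lineage by the lists.

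Within OPC-like nuclei, cycling and not cycling nuclei (0 UMIs of the 5 genes) of the same library were compared gene by gene. UMIs were summed per group of nuclei and set as log2 of the ratio of CPM plus 20, for 2355 genes with 30 or more UMIs in cycling OPC-like nuclei; a gene low in cycling nuclei could miss that limit. Of these, 156 were 2-fold or more higher in cycling nuclei in both libraries (6.62%), and 12 were 2-fold or more lower (0.51%). The rule chose on this contrast, so these are descriptions. Of the 156, 87 stood in the cell-cycle lists, 5 of them the rule's own genes, and 95 genes of those lists were compared in all. The median over all genes compared was 0.09 in AAV-TAU and 0.06 in AAV-STOP.

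Outside the rule, Knl1 and Prc1 had the largest ratios. Knl1, the scaffold of the outer kinetochore, had 89 UMIs in 29 of 34 AAV-TAU and 74 UMIs in 23 of 29 AAV-STOP cycling OPC-like nuclei, at 559 and 446 CPM, against 1.27 and 1.79 CPM in not cycling ones. Prc1, which bundles microtubules of the central spindle, had 433 CPM in AAV-TAU and 506 CPM in AAV-STOP cycling nuclei, against 1.77 and 2.98 CPM. The log2 ratios of Knl1 were 4.77 in AAV-TAU and 4.42 in AAV-STOP, and those of Prc1 were 4.38 and 4.52. Ckap2, Kif15, Aspm, Ect2, Kif4 and Kif23 also stood near the top of the comparison, with log2 ratios of 3.66 to 4.34 in both libraries.

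By list, all 9 compared genes of kinetochores and centromeres, 10 of 10 mitotic kinesins, 21 of 21 spindle and cytokinesis genes and 5 of 5 checkpoint kinases were 2-fold or more higher in both libraries. Their median log2 ratios were 2.72, 2.89, 2.74 and 2.48 in AAV-TAU and 3.15, 3.59, 3.04 and 2.90 in AAV-STOP. Repair and recombination genes followed with 8 of 8 (medians 2.41 and 2.00), chromosome condensation with 8 of 10 (2.45 and 2.36) and replication forks with 2 of 3 (2.02 and 1.69). Brip1, a helicase of DNA repair, had 119 CPM in AAV-TAU and 108 CPM in AAV-STOP cycling nuclei, against 1.52 and 1.79 CPM. Most replication licensing genes were too low to compare: 1 of 15 passed the limit, and of nucleotide synthesis 0 of 6. Ezh2, the histone methyltransferase, had log2 ratios of 2.29 in AAV-TAU and 2.19 in AAV-STOP. Hmgb1, an abundant chromatin protein, had 0.30 in AAV-TAU and 0.40 in AAV-STOP.

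Outside the cell-cycle lists 69 genes were higher. Neil3, a DNA glycosylase, had 232 CPM in AAV-TAU and 247 CPM in AAV-STOP cycling nuclei, against 0.51 and 0.20 CPM. Lockd, a noncoding transcript, had 31 UMIs in 20 AAV-TAU and 47 UMIs in 21 AAV-STOP nuclei. Depdc1a, Parpbp, Efcab11, Bora, Esco2, Kntc1, Cep128, Kifc5b, Shcbp1, Spag5, Stil, Depdc1b and Zwilch made up the rest of the 15 largest. Several of these are known cell-cycle genes that the lists left out, such as Esco2 of sister chromatid cohesion, Bora of mitotic entry, and Kntc1 and Zwilch of the spindle checkpoint.

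The lower genes included those of myelin and of differentiating oligodendrocytes. Mbp, the myelin basic protein, had 245 CPM in AAV-TAU and 157 CPM in AAV-STOP cycling OPC-like nuclei, against 1253 and 1108 CPM in not cycling ones (log2 -2.27 and -2.68). Bcas1, a marker of early myelinating oligodendrocytes, had 238 and 96.3 CPM against 630 and 541 CPM (log2 -1.33 and -2.27). St18, a transcription factor, had log2 ratios of -1.88 in AAV-TAU and -2.04 in AAV-STOP, and Nfasc, the adhesion protein neurofascin, -1.89 and -1.86. Frmd4a, Gjc3, Map7, Ano4, Slc24a2 and Tmeff2 were the others of the 10 lowest, down to -1.91. Of the mature oligodendrocyte list 3 of 8 genes were compared and 3 of 3 lay below 0 in both libraries, with medians of -1.08 and -0.91. Mature neuron genes also lay below 0, 6 of 6 in either library, with medians of -0.62 and -0.46. The rule of 0 UMIs keeps not cycling nuclei free of these 5 genes but not of myelin or neuronal RNA, and the part of such RNA was not tested.

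Among 15 compared OPC genes outside the placing list, none differed 2-fold or more between cycling and not cycling OPC-like nuclei in both libraries. Both groups of nuclei were placed by the OPC list, so similar levels of its own genes follow in part from the placing, and none of its 7 compared genes differed 2-fold or more in both libraries, against the 6.62% and 0.51% above. The medians were 0.01 and 0.26 for the list and 0.14 and 0.25 for the further genes in AAV-TAU and AAV-STOP in that order. Pdgfra had 452 CPM in AAV-TAU and 674 CPM in AAV-STOP cycling nuclei, against 335 and 294 CPM (log2 0.41 and 1.14). Ptprz1, a receptor phosphatase of OPCs, had log2 ratios of 0.49 in AAV-TAU and 0.57 in AAV-STOP, and Tnr, the matrix protein tenascin-R, -0.66 and -0.33.

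**Figure D4:**
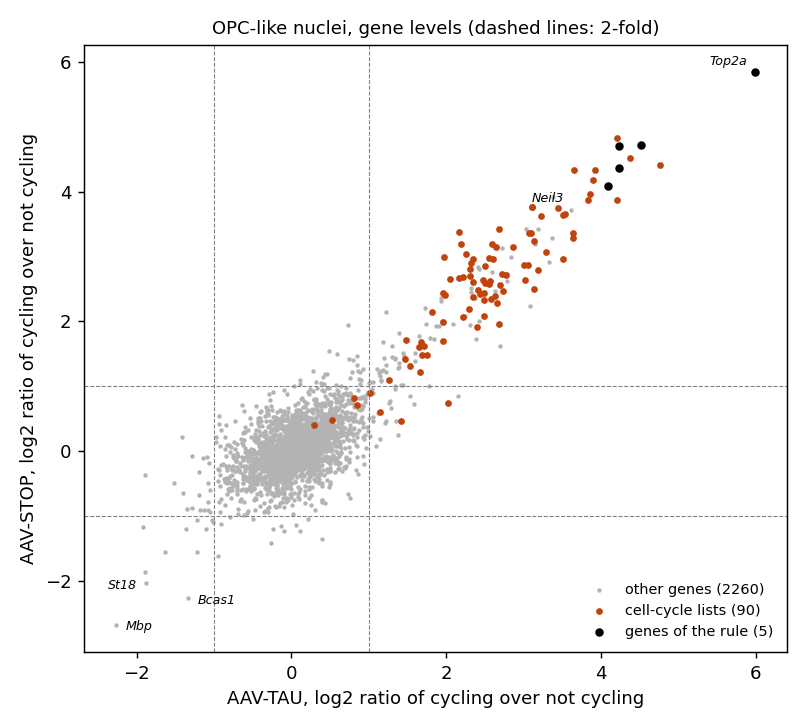
Log2 ratio of cycling over not cycling OPC-like nuclei for 2355 genes, AAV-TAU on the x axis and AAV-STOP on the y axis; dashed lines mark 2-fold. Genes of the cell-cycle lists (orange) and of the rule (black) fill the upper right, with Top2a farthest out, while Mbp, St18 and Bcas1 lie at the lower left.

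The cycling nuclei held more G2/M than S phase RNA in both libraries. Per nucleus, the 49 G2/M genes outside the rule had a median of 69.0 UMIs per 10000 in AAV-TAU and 88.3 in AAV-STOP, and the 43 S phase genes 23.3 and 24.9. In OPC-like cycling nuclei the medians were 72.4 in AAV-TAU and 92.1 in AAV-STOP for G2/M, and 29.7 and 18.8 for S phase. In the other cycling nuclei they were 68.1 and 86.2 for G2/M, and 13.5 and 28.8 for S phase. OPC-like nuclei that were not cycling had 7.34 and 6.87 per 10000 for G2/M and 4.18 and 4.10 for S phase. The G2/M count was the larger in 67 of 77 AAV-TAU and 57 of 66 AAV-STOP cycling nuclei, and the S count in 8 and 9. After thinning to 1500 UMIs the G2/M medians were 66.7 and 86.7 per 10000. The rule's own genes belong to G2/M, so nuclei in early S phase could be missed, and these counts do not give the length of a phase.

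**Figure D5:**
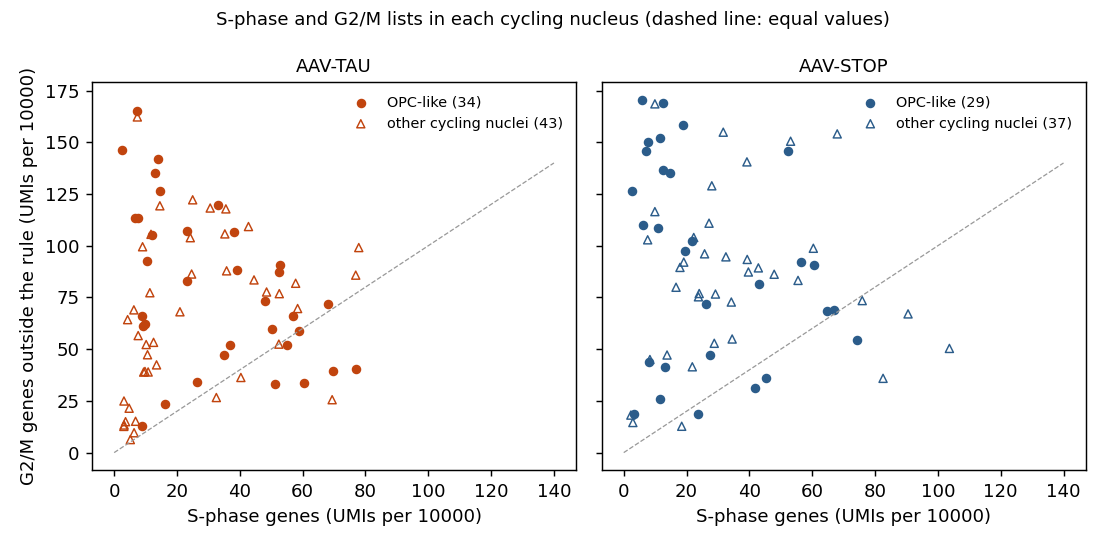
UMIs per 10000 of the 43 S phase genes (x axis) and of the 49 G2/M genes outside the rule (y axis) in each cycling nucleus, AAV-TAU left and AAV-STOP right; filled circles are OPC-like nuclei, open triangles the others, and the dashed line marks equal values. Most nuclei lie above the line, 67 of 77 in AAV-TAU and 57 of 66 in AAV-STOP.

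Between the libraries, levels in cycling nuclei were compared as AAV-TAU over AAV-STOP on the same log2 scale, for genes with 30 or more UMIs in the library with the higher CPM. Of 3589 genes, 74 differed 2-fold or more (2.06%), 46 higher (1.28%) and 28 lower (0.78%) in AAV-TAU; with median-of-ratios scaling the split was 36 higher and 40 lower. The count depended on the settings: it was 11 under the looser rule, 167 without marked doublets, and 169 and 26 with pseudocounts of 5 and 50. The median over all genes was 0.05. Leaving out nuclei above 10000 UMIs, chosen after seeing the data, gave 42 of 2142 genes (1.96%), 23 higher (1.07%) and 19 lower (0.887%). Cycling nuclei other than OPC-like gave 217 of 2082 genes (10.4%), 146 higher (7.01%) and 71 lower (3.41%). Not cycling OPC-like nuclei, with many more UMIs, gave 1 of 11448 genes (0.00874%), which was higher, and 0 lower (0.0%).

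Several of the highest genes in AAV-TAU rested on its deepest nuclei. Cfap299, a gene of motile cilia, had 32 UMIs in 5 AAV-TAU nuclei, 19 and 10 of them in the nuclei of 29220 and 22083 UMIs, and 0 UMIs in AAV-STOP. It had 0 UMIs in both libraries once nuclei above 10000 UMIs were left out. Chrm3, a muscarinic receptor, had 236 UMIs in AAV-TAU and 46 in AAV-STOP (log2 1.55), but 13 and 24 UMIs (log2 -0.71) without those nuclei. Dnah9, an axonemal dynein, Nell1 and Errfi1 had log2 ratios of 1.44 to 1.53, and 0.17 to 0.57 without them. Mgat4c, a glycosyltransferase, Vwc2l and Etl4 kept higher values, with log2 ratios of 1.54, 1.63 and 1.68 with all nuclei and 2.35, 2.44 and 1.61 without the deepest. Cntnap4, a neurexin-family protein, had 44 UMIs in 18 AAV-TAU nuclei and 2 UMIs in 1 AAV-STOP nucleus, a ratio of 13.8 (3.59 to 117).

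The lowest genes in AAV-TAU were F13a1 (log2 -2.13), Runx1 (-2.13) and Egfr (-1.89), described above. The F13a1 and Egfr values rested on few AAV-STOP nuclei, 40 of 50 F13a1 UMIs in 1 nucleus and 18 of 99 Egfr UMIs in each of the 2 highest. In OPC-like nuclei Egfr had 2 UMIs in AAV-TAU and 1 in AAV-STOP, too few to read a direction. Ccnb2, cyclin B2, which drives entry into mitosis, was spread over more nuclei: 22 UMIs in 20 of 77 AAV-TAU nuclei and 54 UMIs in 30 of 66 AAV-STOP nuclei, a ratio of 0.255 (0.148 to 0.425). The next were Ltbp1, Lrmda, Sox1ot, Rnf180, Cntrob and Epb41l2, with log2 ratios of -1.44 to -1.20.

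In OPC-like cycling nuclei, 32 of 1142 genes differed 2-fold or more (2.8%), 14 higher (1.23%) and 18 lower (1.58%) in AAV-TAU. Of 1142 genes compared both here and in all cycling nuclei, 4 differed 2-fold or more in the same direction in both. The OPC-like nuclei are part of all cycling nuclei, so these comparisons share nuclei. Sox10, the transcription factor of the oligodendrocyte lineage, stands in the OPC list and helped to choose cycling and not cycling OPC-like nuclei. In the cycling ones it had 65 UMIs in 30 of 34 AAV-TAU nuclei and 30 UMIs in 18 of 29 AAV-STOP nuclei. These were 408 and 181 CPM (log2 1.09, ratio interval 1.44 to 3.61). In not cycling OPC-like nuclei it had 284 CPM in AAV-TAU and 258 CPM in AAV-STOP (log2 0.13). Bcas1 had 238 CPM in AAV-TAU and 96.3 CPM in AAV-STOP cycling nuclei (log2 1.15), and 0.21 in not cycling ones. Tcf25 had 257 and 66.2 CPM (log2 1.69), spread over 25 and 9 nuclei. Gapdh, the glycolytic enzyme, had 245 and 90.3 CPM (log2 1.26) and was also higher in not cycling nuclei, with 241 and 117 CPM (log2 0.93). Slit2 was 1 nucleus: 26 of its 30 AAV-TAU UMIs lay in 1 nucleus. Morf4l1, Vdac1, Mgat4c and Trank1 were also among the 10 highest.

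The lowest in OPC-like cycling nuclei were Lingo2, Cntnap5b, Smg1, Pex5l, Tenm3, Tenm2, Trpm3, Pigk, Ccnb2 and Trpc4. Lingo2, a neuronal surface protein, had 24 UMIs in 9 AAV-TAU nuclei and 123 UMIs in 9 AAV-STOP nuclei (log2 -2.16). Most of this RNA lay in nuclei marked by the doublet caller. The marked AAV-STOP nuclei held 11, 8, 20, 1, 53 and 25 Lingo2 UMIs, and each unmarked one at most 2. The marked AAV-TAU nuclei held 0, 8, 0, 3 and 7, and each unmarked one at most 1. The part of doublets in the Lingo2 difference was not tested. Tenm2, a teneurin adhesion protein, had 128 and 313 UMIs, with 57 and 99 in the top nucleus. Ccnb2 had 14 UMIs in 12 of 34 AAV-TAU nuclei and 35 UMIs in 17 of 29 AAV-STOP nuclei (log2 -1.10, ratio interval 0.207 to 0.795), with at most 2 and 6 UMIs in a nucleus. Pdgfra, which helped to choose these nuclei, had 452 CPM in AAV-TAU and 674 CPM in AAV-STOP (log2 -0.56).

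Mitotic kinesins outside the rule had lower levels in AAV-TAU than in AAV-STOP cycling nuclei, mostly by less than 2-fold. In OPC-like cycling nuclei 7 of 12 kinesins were compared, all 7 below 0 with a median of -0.64 and 1 past 2-fold, against 651 of 1142 genes below 0 and a median of -0.07 over all genes. In the same nuclei 4 of 5 kinetochore genes lay below 0 (median -0.15), and 7 of 13 spindle and cytokinesis genes (median -0.05, and 0.02 with median-of-ratios scaling). Of the 5 not compared, Kif2c lay above 0 (0.16) and the others below. Kifc1, a minus-end spindle motor, had 13 UMIs in AAV-TAU and 32 in AAV-STOP (log2 -1.07), and Kif23, a motor of the central spindle, 38 and 67 (log2 -0.71). Kif4, a chromosome motor, had 44 and 49 UMIs (log2 -0.09). Kif11 and Cenpe, kinesins of the rule, were left out of the list. In OPC-like cycling nuclei Kif11 had 439 CPM in AAV-TAU and 506 CPM in AAV-STOP, and Cenpe 320 and 319 CPM. In all cycling nuclei with 10000 UMIs or fewer, 10 of 10 compared kinesins lay below 0 (median -0.47, 0 past 2-fold), as did 9 of 9 kinetochore genes (-0.48; 8 of 9 with median-of-ratios scaling) and 5 of 5 checkpoint kinases (-0.35). Over all genes in these nuclei 1126 of 2142 lay below 0, with a median of -0.03. Spindle and cytokinesis genes were split, 8 above 0 and 13 below (-0.11), chromosome condensation had a median of 0.12 and repair genes of 0.16. With all nuclei kept, the kinesin median was -0.95 and that of the 5 rule genes -0.59; without the deepest nuclei the rule genes stood at -0.03. With each OPC-like nucleus weighted equally, the kinesin median was -0.66. The genes of a list were measured in the same 34 and 29 nuclei and are not independent of each other. The S phase and G2/M medians of these nuclei also differed between the libraries, and the part of phase was not tested.

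Of 10 heat shock genes, 4 were compared in cycling OPC-like nuclei: 3 lay above 0 and 1 below, with a median of 0.55 and 0 past 2-fold, against 491 of 1142 genes above 0. Hsp90aa1, a cytosolic chaperone, had 339 CPM in AAV-TAU and 163 CPM in AAV-STOP (log2 0.97), and Hspa8, a constitutive chaperone, 339 and 199 CPM (log2 0.71). In not cycling OPC-like nuclei 10 of 10 heat shock genes lay above 0 with a median of 0.46, and 11 of 11 respiratory chain genes with a median of 0.41, against 6853 of 11448 genes above 0 and a median of 0.04 over all genes. In cycling OPC-like nuclei 0 of 11 respiratory chain genes had enough UMIs to compare.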

How the data were processed

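The files hold raw UMI counts per gene and nucleus for 32285 genes, as the authors deposited them; per the file headers the matrices came from Cell Ranger 8.0.1, while the submitters' processing notes name Cell Ranger 4.0 and Seurat 4.4.0, and mm10. Per the labels, libraries were made with 10x 3' chemistry. The AAV-TAU library held 109428807 UMIs and the AAV-STOP library 130252240. A further vector form of the study was not analysed here.

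All deposited nuclei were kept. Members, gene lists and tests were chosen with earlier results of these data known. UMIs were summed per library and class, and compared as log2((CPM + 20)/(CPM + 20)) with a minimum of 30 UMIs; with 1 library per group there was no test. Shares have Clopper-Pearson 95% intervals and levels exact Poisson ones, which cover counting error only; a count of 0 was given an upper limit of 3 counts. Granule-type neurons (Prox1 at 2 or more UMIs, Rbfox3 and Slc17a7 together at 4 or more) and oligodendrocyte-type nuclei (Mog, Mag and Opalin together at 4 or more, Rbfox3 and Slc17a7 at most 1), all with 0 UMIs of the 5 rule genes, gave the background of lineage genes. Doublets were marked by simulated neighbours, and kept. Named genes were the 10 highest and 10 lowest between the libraries, the 15 highest and 10 lowest between cycling and not cycling nuclei, the lineage genes and list members, leaving out predicted, mitochondrial, ribosomal, haemoglobin and sex-linked marker genes; the 10 genes of nuclei without a lineage and the 15 outside the cell-cycle lists were chosen after their values were seen, as were other genes named beside them. Some genes that the rule names are not reported here. Scripts were tested on simulated data. Python 3.11.15, numpy 2.4.6, scipy 1.17.1, pandas 2.3.3, scikit-image 0.26.0 and matplotlib 3.10.9 were used. Gene positions are from GENCODE on GRCm38, promoters from RefSeq on GRCm38.p6, which matched 171 of 211 cell-cycle genes. Alternatives changed the rule, the pseudocount, the UMI minimum, the lineage limit, the scaling and the nuclei kept.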

Additional observations from a re-analysis of the deposited data

How the results depend on the processing

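The share of cycling nuclei, AAV-TAU over AAV-STOP, was 0.27 on the log2 scale and -0.03 after thinning, both inside the counting interval of -0.22 to 0.77. The OPC-like share in AAV-TAU was 31.6% under the looser rule. The 74 genes past 2-fold between the libraries became 11 under the looser rule, 169 and 26 with pseudocounts of 5 and 50, 171 and 15 with minimums of 10 and 100 UMIs, 32 in OPC-like nuclei, 167 without marked doublets and 42 without nuclei above 10000 UMIs. The 156 genes higher in cycling OPC-like nuclei became 266 and 28 with minimums of 10 and 100 UMIs. The 12 lower genes became 6 under the looser rule, 23 and 4 with lineage limits of 2 and 4 genes, and 28 and 3 with those minimums. Between the libraries, Chrm3 reversed to -0.71 without nuclei above 10000 UMIs; the cause was not tested. Egfr came to 0.32 in OPC-like nuclei, from 2 UMIs against 1, which is too few to read as a reversal. Of the values of single genes between the libraries, 180 stayed inside the counting interval of the main value, 58 left it and 2 reversed. Cfap299, without a UMI in AAV-STOP, had no finite interval, so all its values counted as inside. Between cycling and not cycling nuclei, 333 values kept their 2-fold call and 17 did not. Leaving out deep nuclei was chosen after seeing the data. The planned doublet caller, scrublet in scanpy, was tried and its marks were seen, but it was not kept because its marks can change with the processor. A rewrite of its method took its place, and the settings of the rewrite were changed after a first version had marked nearly all AAV-TAU cycling nuclei. No paired analysis was possible because each group was 1 library, and no replicate could be left out. Depth limits the rest: 12 nuclei gave 52.4% of the UMIs of AAV-TAU cycling nuclei.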
